A study of Mus musculus with 65 samples.

Results

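Elavl3, Elavl4 and Rbfox3 are 3 genes for neuronal RNA-binding proteins, taken by name from the 10407 genes measured in 65 single mouse cells, and all 3 were found. Each cell was a separate sample, called a library here. The cells were processed by Patch-seq, a method that aspirates 1 cell through a recording pipette and sequences its messenger RNA. The cells came from CD1 mice and were labelled as neuronal progenitors. They fell into 3 groups. The E12 group held 20 wild-type cells of embryonic day 12 and the E15 group 26 wild-type cells of embryonic day 15, both picked by FlashTag, a dye that marks cells dividing at the ventricle. The transplanted group held 19 progenitors of embryonic day 15 that had been placed in an E12 brain. The design names the subject as apical progenitors moved into a younger host. The labels give each cell an index and a pool. Some indexes occurred in E15 and transplanted cells but in no E12 cell, so index cannot be fully told apart from group. No label names an animal, a litter, a host brain or the time between marking or transplantation and collection. Each group was therefore treated as 1 sample, no test between groups was made, and cells were not taken as replicates of a condition.

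Proteins of the ELAV-like family bind AU-rich and U-rich stretches of messenger RNA, where they slow decay and shape splicing and translation. Elavl1 is made in nearly all cells, whereas Elavl2, Elavl3 and Elavl4 are largely neuronal and appear as cells leave the progenitor state. Rbfox proteins regulate alternative splicing, and the Rbfox3 protein is NeuN, the antigen used to mark postmitotic neurons. In the developing cortex these genes are background markers of neuronal differentiation rather than of dividing apical progenitors.

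All 3 genes lie on the minus strand of GRCm38 in the GENCODE vM21 annotation. Elavl3 (ENSMUSG00000003410.8) spans chr9:22015005-22052023, Elavl4 (ENSMUSG00000028546.17) spans chr4:110203722-110351909 and Rbfox3 (ENSMUSG00000025576.17) spans chr11:118489762-118911597. A predicted gene on the same strand, Gm49318, overlaps 256 exonic bases of Elavl3, or 3.72% of the length of its exons. Reads from those bases cannot be assigned with certainty, and their share of the Elavl3 reads was not measured. Gm49318 was not among the genes measured. No other annotated gene shares exonic bases with the 3. Their promoters are shown as RefSeq gives them for GRCm38.p6, from 250 bases before to 50 bases after a transcript start. Capitals mark CANNTG, the E-box core bound by basic helix-loop-helix factors such as the neurogenins and NeuroD proteins, which reads the same on both strands. Elavl4 has 4 entries, and the one printed was chosen after its letters were seen because it holds the most matches.
Elavl3, chr9:22051974-22052273, minus strand: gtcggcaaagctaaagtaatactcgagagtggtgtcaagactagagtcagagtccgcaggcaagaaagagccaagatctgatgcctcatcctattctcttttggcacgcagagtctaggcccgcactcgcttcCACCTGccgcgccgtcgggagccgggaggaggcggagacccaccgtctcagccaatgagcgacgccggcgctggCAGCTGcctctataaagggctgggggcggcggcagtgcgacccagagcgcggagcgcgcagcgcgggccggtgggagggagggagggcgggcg
Elavl4, chr4:110287478-110287777, minus strand: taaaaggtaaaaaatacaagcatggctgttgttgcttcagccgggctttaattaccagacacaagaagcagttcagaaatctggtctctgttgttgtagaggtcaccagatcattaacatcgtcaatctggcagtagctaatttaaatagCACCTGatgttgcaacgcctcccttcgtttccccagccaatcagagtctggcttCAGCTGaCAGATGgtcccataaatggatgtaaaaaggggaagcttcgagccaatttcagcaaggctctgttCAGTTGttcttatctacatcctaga
Rbfox3, chr11:118760992-118761291, minus strand: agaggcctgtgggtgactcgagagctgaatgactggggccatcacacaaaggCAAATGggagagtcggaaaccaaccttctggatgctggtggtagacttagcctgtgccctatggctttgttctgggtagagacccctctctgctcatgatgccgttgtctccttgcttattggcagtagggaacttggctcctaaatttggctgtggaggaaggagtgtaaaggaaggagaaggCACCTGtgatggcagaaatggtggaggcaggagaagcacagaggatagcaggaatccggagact
The Elavl3 window holds 2 matches and the Rbfox3 window 2. The Elavl4 window holds 4, whereas the entry farthest upstream, at chr4:110351862-110352161, holds 0. CANNTG occurs in 72.3% of all 32851 promoter windows of the same length, the form CAGCTG in 16.3% and the form CAGATG, read on both strands, in 17.2%. A match is a description of the letters, and binding was not measured.

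Depth differed between the groups, which bears on all values that follow. The total reads per cell ranged from 10928 to 1635767 (median 148824) in E12 cells, from 11449 to 4560871 (median 998630) in E15 cells and from 22358 to 3622411 (median 166134) in transplanted cells. In 16 libraries, 11 of E15 and 5 of transplanted cells, more than 8000 genes were detected, and these held 62.6% of all reads. No E12 library passed that limit. All 20 apical progenitor markers of the list used, among them Sox2 and Pax6, had reads in each group, and their summed level per cell had a median of 10487 CPM (reads per 1000000 reads of the cell) in E12, 5151 in E15 and 7664 in transplanted cells. Medians of the ventral telencephalon and interneuron sum were 256, 1864 and 1336 CPM, those of the microglia sum 40.1, 1050 and 413 CPM, and those of the erythroid sum 2946, 116 and 4698 CPM. The summed level of 26 pan-neuronal markers per cell ranged from 1221 to 16067 CPM in E12 cells (median 3281), from 947 to 21701 in E15 cells (median 9121) and from 1754 to 22164 in transplanted cells (median 9519). In the 16 libraries with more than 8000 genes the pan-neuronal sum had a median of 15481 CPM against 4309 in the other 49 cells, the apical progenitor sum 3064 against 10547, the sum of ventral telencephalon and interneuron markers 4201 against 480 and the sum of microglia markers 2696 against 111. The microglia difference held for the E15 libraries, at 3228 against 119 CPM in the other E15 cells. In transplanted cells it was reversed, at 33.7 CPM in the libraries above 8000 genes against 446 CPM in the others. The part of the 16 libraries in the differences between groups was not tested, and the results on the 3 genes below are given with and without them.

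Elavl3, an ELAV-like protein of neurons, stood lowest in E12 cells, highest in E15 cells and between them in transplanted cells. In E12 cells its level ranged from 0 to 448 CPM per cell with a median of 16.8, and 11 of 20 cells had a read. In E15 cells it ranged from 0 to 2027 CPM with a median of 262, and 24 of 26 cells had a read. In transplanted cells it ranged from 0 to 522 CPM with a median of 102, and 16 of 19 cells had a read. The single-cell ranges overlapped in all 3 groups, with cells at 0 in each. The highest value, in E15 replicate 24, rested on 50 reads in a library of 24673, and the next E15 cell stood at 514 CPM. The deepest E12 library, replicate 5, had 0 Elavl3 reads among 1635767, which allows a level of up to 1.83 CPM.

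**Figure D1:**
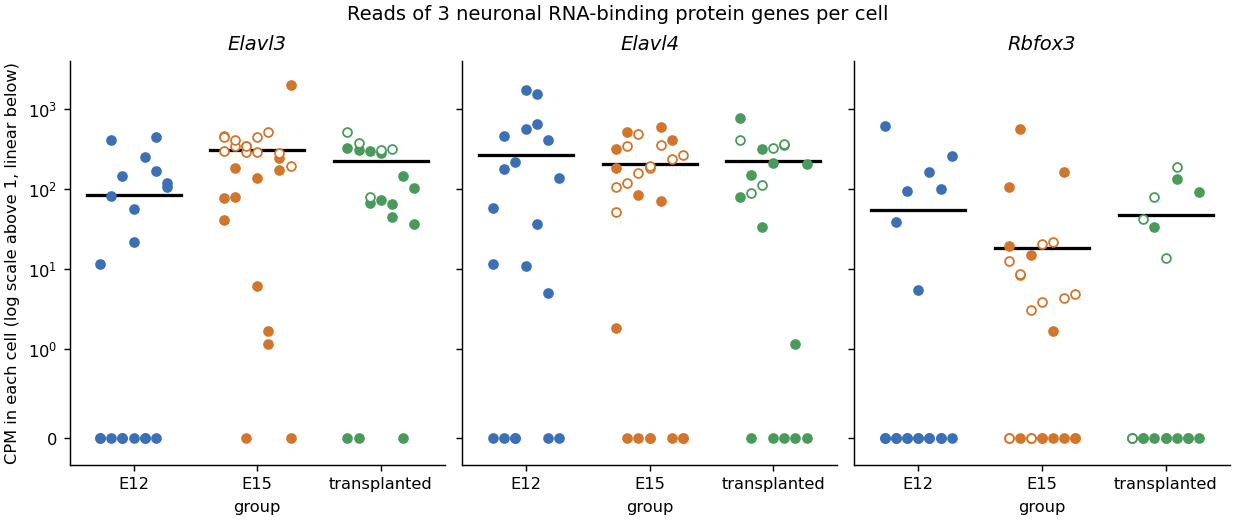
Level of Elavl3, Elavl4 and Rbfox3 in each of the 65 cells in CPM, by group, on an axis that is logarithmic above 1 CPM and linear below. Each point is a cell, open points are the 16 libraries with more than 8000 genes, and the black line is the CPM of the group's summed reads. Elavl3 has most E15 and transplanted cells above the E12 median of 16.8. The Elavl4 ranges overlap, with the highest cells in E12, and Rbfox3 is at 0 in most E12 and transplanted cells.

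Added up over cells, Elavl3 reached 84.6 CPM in E12 cells (95% Poisson limits 76.7 to 93.1), 307 CPM in E15 cells (301 to 312) and 223 CPM in transplanted cells (214 to 231). All limits here cover counting error only, and the reads carry no molecular identifiers, so they are not independent molecules. The E15 level was 3.62-fold that of E12 cells (95% limits 3.29 to 4.01), a log2 ratio of 1.85, which lay between 1.27 and 2.13 when any 1 cell was left out. E15 cells were also higher in 8 of 8 pools of cells named in the labels, with log2 ratios from 0.24 to 8.53, although a pool held only 1 to 5 cells of a group and the highest ratios came from pools with few or no E12 reads. Without the libraries above 8000 genes the levels were 84.6 CPM in E12, 168 CPM in E15 and 88.6 CPM in transplanted cells. The E15 to E12 log2 ratio was then 0.98, just under the size of 1 used here to call a gene higher or lower. It was 0.41 when E12 replicate 5 was left out as well, and 1.33 when E15 replicate 13 was left out instead.

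The transplanted level of Elavl3 was 2.63-fold that of E12 cells (2.37 to 2.92), a log2 ratio of 1.39. Without E12 replicate 5 it was 0.81, and without the libraries above 8000 genes it was 0.07, so the difference was no longer of the size called. In that subset transplanted replicate 19 held 55.7% of the transplanted reads of all genes, and leaving it out gave 0.86. Against E15 cells the transplanted level was lower, at a log2 ratio of -0.46 (range -0.69 to -0.18 with any 1 cell omitted) and at -0.92 without the libraries above 8000 genes, which became -0.12 when transplanted replicate 19 was left out as well. On the mean CPM per cell without those libraries it was -0.996, from 252 CPM in E15 and 126 CPM in transplanted cells. That E15 mean included replicate 24 at 2027 CPM, and the medians were 78.9 and 70.6 CPM. When cells were thinned to 50000 reads, with shallower cells left out and E15 replicate 24 among them, the ratio was -0.07. Elavl3 was thus lower in transplanted than in E15 cells under each of these settings, by an amount that depended on the setting and on single libraries.

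Elavl4, known as HuD, supports neurite growth and stabilises messenger RNAs of neuronal proteins. Its summed level differed little between the groups and its highest cells were of E12. In E12 cells it ranged from 0 to 1721 CPM with a median of 47.4, and 14 of 20 cells had a read. In E15 cells it ranged from 0 to 599 CPM with a median of 138, and 19 of 26 had a read. In transplanted cells it ranged from 0 to 770 CPM with a median of 113, and 14 of 19 had a read. The E12 group therefore had the lowest median and the highest maximum, and all ranges overlapped. The 2 highest E12 cells were replicate 11 at 1721 CPM and replicate 19 at 1562 CPM, and both also had high pan-neuronal sums, 16067 and 12987 CPM against the E12 median of 3281.

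Summed Elavl4 was 268 CPM in E12 cells (254 to 283), 204 CPM in E15 cells (200 to 209) and 229 CPM in transplanted cells (220 to 237). E12 replicate 19 alone held 48.4% of the E12 reads, and without it the E12 level was 151 CPM. The log2 ratio of E15 over E12 was -0.39 and turned to 0.44 without that cell. That of transplanted over E12 was -0.23 and turned to 0.60. Transplanted over E15 was 0.16 and became -0.11 without transplanted replicate 15 and -0.20 without the libraries above 8000 genes. None of the 3 ratios reached the size called, and their signs rested on single cells.

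Rbfox3, whose protein NeuN marks mature neurons, was detected in the fewest cells of the 3 genes and was concentrated in a few of them. In E12 cells it ranged from 0 to 614 CPM with a median of 0, and 7 of 20 cells had a read. In E15 cells it ranged from 0 to 568 CPM with a median of 3.53, and 15 of 26 had a read. In transplanted cells it ranged from 0 to 187 CPM with a median of 0, and 7 of 19 had a read. E12 replicate 1 had the highest level, with 107 Rbfox3 reads beside 2 reads each of Elavl3 and Elavl4 and a pan-neuronal sum of 1221 CPM, the lowest of its group. E15 replicate 3, the highest E15 cell, had 36 reads at 568 CPM and an erythroid marker sum of 57643 CPM, against an E15 median of 116.

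Summed Rbfox3 was 55.4 CPM in E12 cells (49.1 to 62.4), 18.3 CPM in E15 cells (16.99 to 19.8) and 47.3 CPM in transplanted cells (43.6 to 51.3). The E12 level was 3.02-fold the E15 level (2.62 to 3.48), a log2 ratio of E15 over E12 of -1.55, and the transplanted level was 2.58-fold the E15 level (2.31 to 2.89), a log2 ratio of 1.32. Both calls rested on single cells or on deep libraries. Without E12 replicate 1, which held 39.1% of the E12 reads, the first was -0.90, and without transplanted replicate 19, which held 39.5% of the transplanted reads, the second was 0.93. Without the libraries above 8000 genes they were -0.32 and 0.23, the first turning to 0.33 when E12 replicate 1 was left out as well. With E15 replicate 10 left out instead, which then held 49.4% of the E15 reads, they were -1.07 and 0.98. In that subset the transplanted level of 52.2 CPM fell to 1.95 CPM when replicate 19, with 98.3% of the reads, was left out. On the mean CPM per cell the transplanted to E15 log2 ratio was -0.26, so the direction turned.

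**Figure D2:**
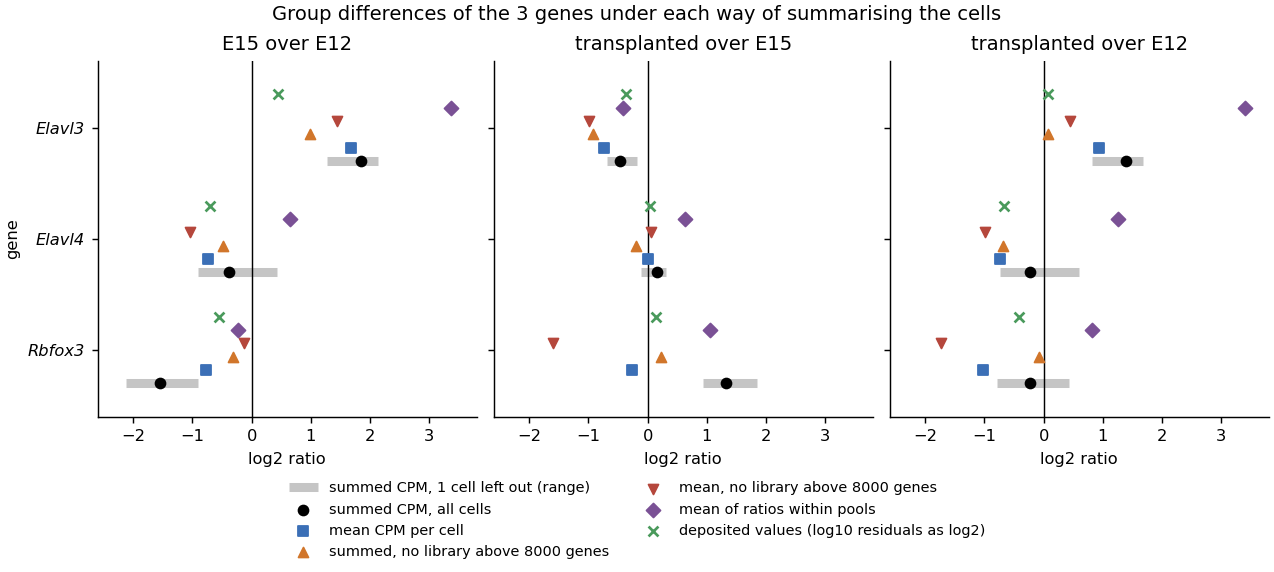
Log2 ratios of Elavl3, Elavl4 and Rbfox3 in the 3 comparisons. Black circles are summed CPM of all cells, the grey bar the range with any 1 cell left out, and the other symbols further ways of summarising the cells, as named in the key. Elavl3 stays above 0 in E15 over E12 under every setting shown, whereas the Elavl4 and Rbfox3 values of transplanted over E15 lie on both sides of 0.

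Across the 3 genes, 1 was higher in E15 than in E12 cells by a log2 ratio of at least 1 (Elavl3) and 1 was lower (Rbfox3). Of the 10193 genes with at least 5 CPM in either group, 25.3% were higher and 20.3% lower by that size, so calls of this size were common among all genes. In transplanted over E15 cells 1 member was higher (Rbfox3) and 0 lower, against 4.71% and 11.8% of 10163 genes. In transplanted over E12 cells 1 was higher (Elavl3) and 0 lower, against 22.9% and 24.7% of 9931 genes. With the libraries above 8000 genes left out, none of the 3 passed in any comparison. The shares of all genes were then 24.2% and 21.6% in E15 over E12, 18.7% and 28.0% in transplanted over E15, and 22.5% and 29.8% in transplanted over E12. The 3 comparisons share their groups, so they are not separate evidence.

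The libraries above 8000 genes carried most of the Elavl3 reads, and a share of the Elavl4 reads close to their share of all reads. All 16 had reads of both genes, at 79.5 to 522 CPM of Elavl3 (median 331) and 52.7 to 489 CPM of Elavl4 (median 216). In the other 49 cells the medians were 67.1 and 36.7 CPM, with a read in 35 and 31 cells. Rbfox3 had a read in 13 of the 16, but at a median of 8.51 CPM, and in 16 of the other 49. These libraries held 81.8% of all Elavl3 reads, 64.7% of Elavl4 reads and 35.8% of Rbfox3 reads, beside 62.6% of the reads of all genes. They were deeper, and their marker sums differed as given above, so depth, content and group cannot be told apart for them.

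Detection was also compared at equal depth, after thinning each cell to 50000 reads and leaving out 9 shallower cells (3 of E12, 2 of E15, 4 transplanted). Elavl3 was then expected in 59.9% of E12, 80.4% of E15 and 92.1% of transplanted cells, against 64.7%, 91.7% and 93.3% of the same cells at full depth. The order of the last 2 groups was opposite to that of their summed CPM, and no order is read from it. Elavl4 came to 65.1%, 74.9% and 67.0%, and Rbfox3 to 36.5%, 31.3% and 29.1%. At full depth Rbfox3 had a read in 41.2%, 62.5% and 33.3% of these cells, so the higher E15 share was not present at equal depth. With the libraries above 8000 genes left out as well, 13 E15 and 10 transplanted cells remained. The thinned Elavl3 share was then 63.9% in E15 and 88.4% in transplanted cells, beside the same 59.9% in E12 cells. Elavl4 came to 54.2% of these E15 and 50.6% of these transplanted cells, and Rbfox3 to 32.6% and 9.9%.

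Cells with Rbfox3 were nested within cells with Elavl3. Of the 65 cells, 27 had reads of all 3 genes, 15 of 2, 16 of 1 and 7 of none. All 29 cells with Rbfox3 had Elavl3 and 27 of them had Elavl4, and no cell had Rbfox3 alone. In the 49 cells outside the libraries above 8000 genes, all 16 cells with Rbfox3 again had Elavl3, with 35 of the 49 cells positive for Elavl3. This rested on 2 Elavl3 reads in E12 replicate 1 and in transplanted replicate 3. In E15 replicate 9 and in transplanted replicate 7 it rested on 1 read. Elavl3 and Elavl4 were found together in 40 cells, which is 78.4% of the 51 cells with Elavl3 and 85.1% of the 47 with Elavl4. In E12 cells Elavl4 without the other 2 occurred in 5 cells and Elavl3 alone in 1. In E15 cells the counts were 0 and 4, and all 19 E15 cells with Elavl4 had Elavl3. In transplanted cells they were 2 and 4. Detection moves with depth, which these cells share across genes, and the counts are a description of these cells.

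**Figure D3:**
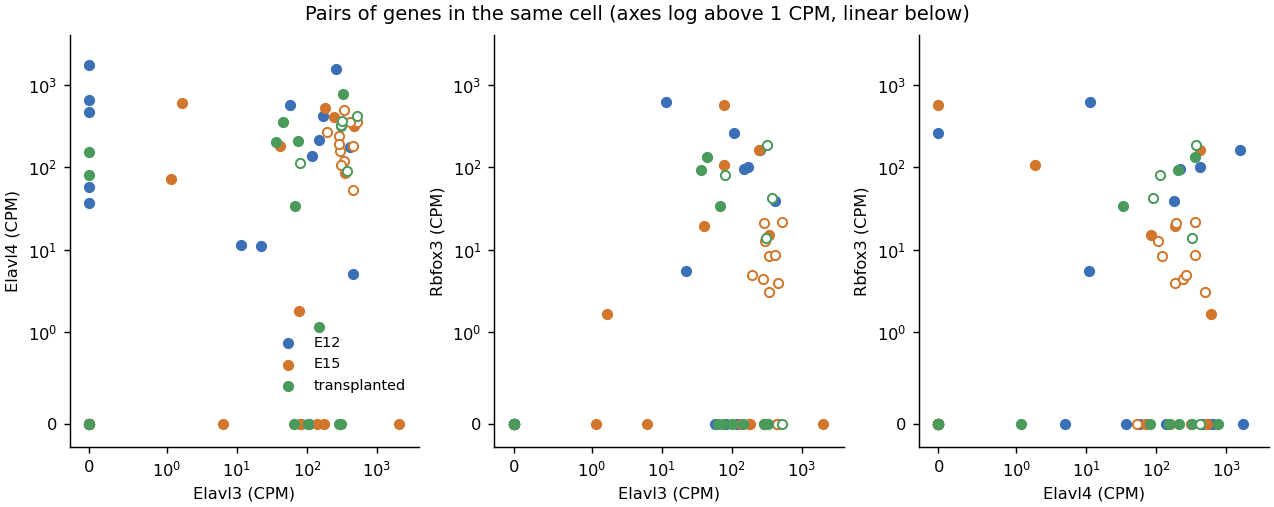
Levels of each pair of genes in the 65 cells in CPM, on axes that are logarithmic above 1 CPM and linear below, coloured by group, with open points for libraries above 8000 genes. No cell with an Rbfox3 read stands at 0 Elavl3, and several E12 cells with Elavl4 do.

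Over the 65 cells the 3 genes varied together only weakly. Pearson r of log2(CPM + 1) was 0.23 between Elavl3 and Elavl4, 0.32 between Elavl3 and Rbfox3 and 0.23 between Elavl4 and Rbfox3, and in the 49 cells it was 0.07, 0.31 and 0.19. With group means subtracted, r over the 65 cells was 0.23, 0.34 and 0.23. The median r over 9104 genes was then 0.17 with Elavl3, 0.26 with Elavl4 and 0.11 with Rbfox3. Both values of Elavl4 thus lay below its own median, though above that of the partner gene. Elavl3 followed the pan-neuronal sum most closely (r = 0.58, and 0.41 in the 49 cells), Elavl4 less (0.37 and 0.18) and Rbfox3 least (0.23 and 0.18). Elavl4 had its higher r with the sum of cortical neuron transcription factors (0.48 and 0.48) and with the intermediate progenitor sum (0.46 and 0.45), and Rbfox3 had 0.32 and 0.30 with the latter. The same cells also share depth, and r with the number of genes detected was 0.49, 0.53 and 0.26. These values are descriptions of cells from 3 groups, without tests.

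After the mean of each group was subtracted, the genes most like each member were ranked among 9104 genes with a read in at least 25% of cells. Nearest to Elavl3 were Ensa (r = 0.62), Nsg2, Tk2 and Add2 (0.58 each) and Tubb3 (0.56), the last a tubulin of neurons, with the 99th percentile of all genes at 0.45. Nearest to Elavl4 were Mrps10 (0.68), Sgta, Mex3b and Polr2b (0.66 each) and Crmp1 (0.65), with the 99th percentile at 0.54. Nearest to Rbfox3 were Elavl2 (0.60), Abhd16a (0.58), Kcnn2 (0.56), Raly (0.56) and Fam110a (0.54), with the 99th percentile at 0.40. With group means subtracted, r with the number of genes detected was 0.39 for Elavl3, 0.58 for Elavl4 and 0.28 for Rbfox3. For Elavl4 that is above the 99th percentile of genes. The part of depth in these rankings was not tested. In the 49 cells r with Rbfox3 was 0.60 for Elavl2, the ELAV-like relative made in neurons, and 0.61 each for Abhd16a and Kcnn2. Raly had 0.56 and Fam110a 0.55. The 5 genes nearest to Elavl3 then had 0.48 to 0.58, and the 5 nearest to Elavl4 had 0.58 to 0.66. The summed levels of Elavl2 were 176 CPM in E12, 111 CPM in E15 and 99.2 CPM in transplanted cells.

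Other genes of neuronal RNA-binding proteins differed in both directions. The list has 22 genes, the 3 members among them, of which 21 were in the tables and 21 reached 5 CPM in E15 or E12 cells. Of these, 8 were higher in E15 than in E12 cells by a log2 ratio of at least 1 and 3 were lower. The median was 0.08, against -0.03 over all genes, of which 25.3% were higher and 20.3% lower. With the libraries above 8000 genes left out the counts were 3 and 2, beside 24.2% and 21.6% of all genes, and the median 0.17. Rbfox1, a splicing relative of Rbfox3, had 0.61 CPM in E12, 50.2 CPM in E15 and 29.7 CPM in transplanted cells, but 28.5 and 0.65 CPM in the latter 2 groups without those libraries. Rbfox2, the broadly made relative, had 108, 160 and 109 CPM (126 and 80.6 without them). Nova2, a splicing regulator of neurons, had 1.62, 22.4 and 25.2 CPM (16.8 and 4.31 without them), and Celf4 had 69.0, 250.03 and 205 CPM (136 and 171). Srrm3 had 2.83, 49.8 and 29.4 CPM with these libraries and 6.08 and 3.23 CPM in E15 and transplanted cells without them. Beside Rbfox3, the genes lower in E15 cells were Nova1, another splicing regulator of neurons, at a log2 ratio of -1.23 (-1.35 without those libraries) and Cpeb2, a regulator of translation, at -1.26 (-2.33). Nova1 had 14.97 CPM in E12 cells, with a read in 3 of 20, and 5.79 CPM in E15 cells, with a read in 12 of 26. Cpeb2 had 18.2 CPM from 2 E12 cells and 7.02 CPM from 14 E15 cells. Both E12 levels thus rested on few cells, and detection went the other way. Srrm4, which promotes neuronal microexons, had 83.4, 82.9 and 92.1 CPM (96.9 and 29.1 without them), and Ptbp2 had 335, 303 and 232 CPM (330 and 239).

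In transplanted over E15 cells 2 of the 21 were higher and 0 lower, beside 4.71% and 11.8% of all genes (medians -0.16 and -0.08). The 2 were Rbfox3 and Khdrbs2, a neuronal splicing factor at 12.01 CPM in E15 and 46.2 CPM in transplanted cells (12.5 and 58.2 CPM without those libraries). In the cells outside the libraries above 8000 genes, 20 were measured. Of these, 3 were higher and 6 lower, beside 18.7% and 28.0% of all genes. In transplanted over E12 cells 8 were higher and 2 lower, beside 22.9% and 24.7% of all genes (medians 0.14 and -0.09). Without those libraries 3 of 17 were higher and 4 lower, beside 22.5% and 29.8% of all genes.

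**Figure D4:**
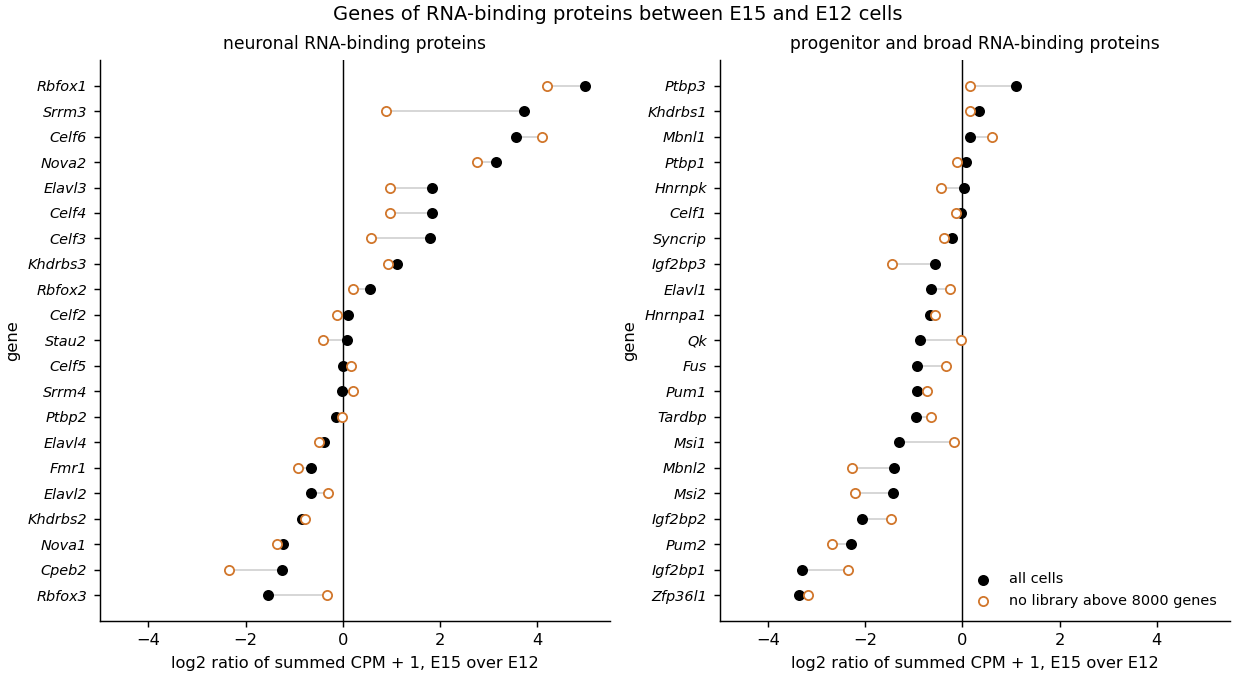
Log2 ratio of summed CPM + 1, E15 over E12, for each gene of the neuronal list (left) and of the progenitor and broad list (right). Black points are all cells and open orange points leave out the libraries above 8000 genes, which moves Elavl3 from 1.85 to 0.98 and Rbfox3 from -1.55 to -0.32. Celf6 had 0 reads in E12 cells, so its point depends on the pseudocount.

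Of the RNA-binding proteins of progenitors and of most cell types, more genes were lower than higher in E15 cells. Among 21 measured genes of 26, 1 was higher in E15 than in E12 cells by at least 1 and 7 were lower (median -0.87), beside 25.3% and 20.3% of all genes, and without the libraries above 8000 genes the counts were 0 and 7 and the median -0.44, beside 24.2% and 21.6%. The 7 genes were not the same, since Msi1 left them and Igf2bp3 joined. Igf2bp1, which binds messenger RNAs of growing cells, had 165 CPM in E12, 15.9 CPM in E15 and 33.7 CPM in transplanted cells (31.6 and 48.7 CPM in the latter 2 without those libraries). Msi1, a regulator of neural progenitors, had 135, 54.2 and 30.6 CPM (119 and 26.1 without them), so its E15 to E12 log2 ratio of -1.30 became -0.18. Elavl1, the family member made in nearly all cells, had 363, 230 and 210 CPM (304 and 263), and Ptbp1, which represses neuronal splicing, had 7.49, 7.90 and 10.3 CPM (6.89 and 18.97).

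Messenger RNAs known to be bound by ELAV-like proteins went both ways. Of 10 measured in E15 over E12 cells 3 were higher and 3 lower by at least 1 (median -0.74), beside 25.3% and 20.3% of all genes. With the libraries above 8000 genes left out 4 of 11 were higher and 2 lower (median -0.24), beside 24.2% and 21.6% of all genes. Gap43, a growth cone protein, had 39.3 CPM in E12, 302 CPM in E15 and 312 CPM in transplanted cells (388 and 151 CPM in the latter 2 without those libraries), and Mapt, the microtubule protein tau, had 46.7, 287 and 279 CPM (298 and 158). Both also belong to the pan-neuronal list, of which 16 of 26 genes were higher in E15 than in E12 cells and 1 lower, against 10 and 4 without those libraries, beside 25.3% and 20.3% of all genes with them and 24.2% and 21.6% without.

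The deposited values themselves are log10 residuals, and they order the groups as the summed reads do, with differences of another size. The authors' values are centred over the 65 cells, and 2 further directions over cells had been removed. These directions held 74.5% of the variance of the number of genes detected. For Elavl3 they removed 39.2% of the variance over cells, for Elavl4 24.3% and for Rbfox3 2.42%. The mean deposited value of Elavl3 was -0.06 in E12, 0.07 in E15 and -0.04 in transplanted cells. That of Elavl4 was 0.14, -0.07 and -0.06, and that of Rbfox3 was 0.10, -0.06 and -0.02. As log2 differences, the Elavl3 value of E15 over E12 was 0.44 before recovery of the reads and 1.91 on the recovered log10 values. No cell without a read had a deposited value above 0 for any of the 3 genes.

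**Figure D5:**
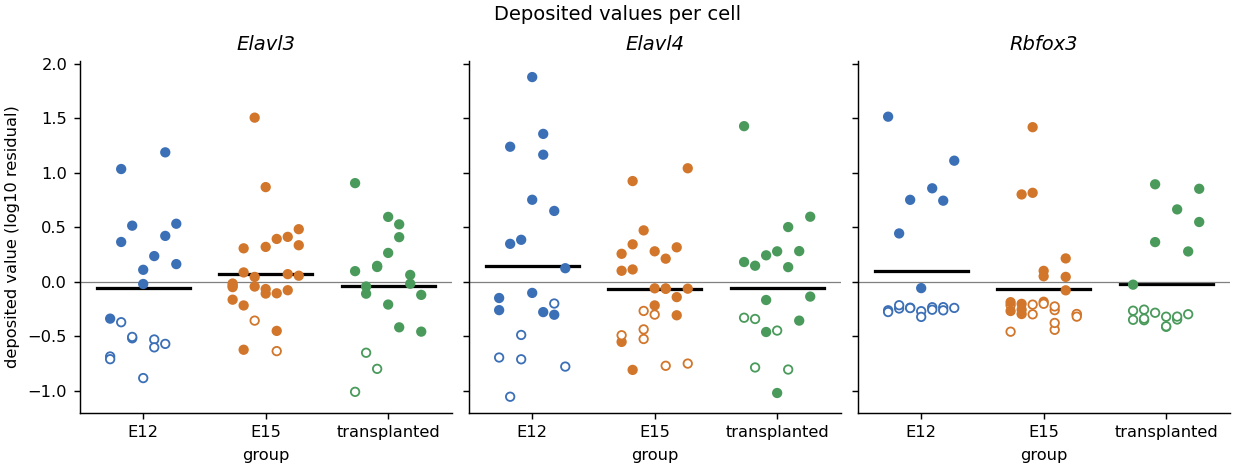
Deposited log10 residual of Elavl3, Elavl4 and Rbfox3 in each cell by group, on a linear axis. Open points are cells without a read, which all lie below 0, and the line is the mean of the deposited values, highest in E15 for Elavl3 (0.07) and in E12 for Elavl4 (0.14) and Rbfox3 (0.10).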

How the data were processed

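The authors mapped reads of 65 single-cell libraries to mm10 using STAR, and counted them by HTSeq, per the submitters' processing notes, which give no versions. The libraries used a SMART-Seq 3' kit and Nextera XT, per the labels' protocols. The deposited values are on a log10 scale, and their form was read from the values: log10 of 1 plus counts scaled to 100000 per cell, centred per gene, with 2 directions over cells removed. The design had assumed counts, so reads were recovered from the log10 values by finding the removed part from cells at 0 (10034 genes) or by a search for whole numbers (373 genes). Each of the 356667 values above 0 was whole to within 0.01. The simulated check of E15 over E12 returned 4000 of 4000 genes exactly. Each gene was read in 6 or more cells, and no 2 libraries were identical.

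Group reads were summed, then expressed as CPM over the genes in the tables. Log2 ratios used a pseudocount of 1 CPM, lists a minimum of 5 CPM, and a ratio of at least 1 in size was called. Limits are 95% exact Poisson, binomial or conditional binomial limits. The members, lists, alternatives and the limit of 8000 genes were chosen with earlier results of these data known. Genes were named if they were members, if they belonged to the 3 RNA-binding and target lists at 5 CPM or more, or if they were among the 5 most correlated with a member. Alternatives were mean CPM, size factors, pool means, thinning to 50000 reads, pseudocounts of 0.1 and 5 CPM, a minimum of 20 CPM, the deposited values, and leaving out each cell or the libraries above 8000 genes. The library total over all genes, the recovered log10 values, and mean CPM without the libraries above 8000 genes were chosen after seeing the data. Marker genes of Cajal-Retzius cells were not analysed here. Scripts ran in Python 3.11.15. Tables used pandas 2.3.3 and NumPy 2.4.6, the search used Numba 0.67.0, limits came from SciPy 1.17.1, and plots were drawn with Matplotlib 3.10.9.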

Additional observations from a re-analysis of the deposited data

How the results depend on the processing

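No paired analysis was possible because the replicate numbers follow accession order and no test was made, and the values within pools below set cells of the same labelled pool side by side without one. Each group is 1 sample, so limits and left-out cells say nothing of animals. Elavl3 was higher in E15 than in E12 cells under every alternative run. The log2 ratios were 0.44 to 3.37, apart from settings that left out single cells. Without the libraries above 8000 genes, leaving out each cell gave 0.41 to 1.33. In all cells leaving out each cell gave 1.27 to 2.13. For the other ratios leaving out each cell gave -0.90 to 0.44 (Elavl4) and -2.12 to -0.90 (Rbfox3) in E15 over E12, -0.69 to -0.18 (Elavl3), -0.11 to 0.32 (Elavl4) and 0.93 to 1.85 (Rbfox3) in transplanted over E15, and 0.81 to 1.67 (Elavl3), -0.74 to 0.60 (Elavl4) and -0.79 to 0.42 (Rbfox3) in transplanted over E12. The Rbfox3 ratio of transplanted over E15 turned its direction on mean CPM, on thinned reads and on mean CPM without the libraries above 8000 genes. On mean CPM per cell the log2 ratio was 1.67 for Elavl3, -0.74 for Elavl4 and -0.77 for Rbfox3 in E15 over E12, -0.73 for Elavl3, 0.0013 for Elavl4 and -0.26 for Rbfox3 in transplanted over E15, and 0.94 for Elavl3, -0.73 for Elavl4 and -1.03 for Rbfox3 in transplanted over E12. Without the libraries above 8000 genes the log2 ratio was 0.98 for Elavl3, -0.49 for Elavl4 and -0.32 for Rbfox3 in E15 over E12, -0.92 for Elavl3, -0.20 for Elavl4 and 0.23 for Rbfox3 in transplanted over E15, and 0.066 for Elavl3 and -0.69 for Elavl4 in transplanted over E12. As a mean within pools the log2 ratio was 3.37 for Elavl3, 0.65 for Elavl4 and -0.23 for Rbfox3 in E15 over E12, 0.64 for Elavl4 and 1.05 for Rbfox3 in transplanted over E15, and 3.39 for Elavl3, 1.26 for Elavl4 and 0.81 for Rbfox3 in transplanted over E12. Thinned to 50000 reads per cell the log2 ratio was 1.07 for Elavl3, -0.69 for Elavl4 and -0.89 for Rbfox3 in E15 over E12, -0.070 for Elavl3, 0.014 for Elavl4 and -0.51 for Rbfox3 in transplanted over E15, and 0.9999 for Elavl3, -0.68 for Elavl4 and -1.40 for Rbfox3 in transplanted over E12. On the deposited values the log2 ratio was 0.44 for Elavl3, -0.70 for Elavl4 and -0.55 for Rbfox3 in E15 over E12, -0.37 for Elavl3, 0.040 for Elavl4 and 0.14 for Rbfox3 in transplanted over E15, and 0.074 for Elavl3 and -0.66 for Elavl4 in transplanted over E12. On the recovered log10 values the log2 ratio was 0.21 for Elavl4 and -0.27 for Rbfox3 in E15 over E12, -0.084 for Elavl4 and 0.12 for Rbfox3 in transplanted over E15, and 0.13 for Elavl4 in transplanted over E12. On mean CPM without the libraries above 8000 genes the log2 ratio was 1.45 for Elavl3, -1.04 for Elavl4 and -0.13 for Rbfox3 in E15 over E12, -0.9964 for Elavl3, 0.057 for Elavl4 and -1.60 for Rbfox3 in transplanted over E15, and 0.45 for Elavl3, -0.99 for Elavl4 and -1.73 for Rbfox3 in transplanted over E12. With a pseudocount of 5 CPM the log2 ratio was -1.37 for Rbfox3 in E15 over E12, and 1.17 for Rbfox3 in transplanted over E15. With size factors the log2 ratio was -0.40 for Elavl3 in transplanted over E15, and -0.13 for Elavl4 in transplanted over E12. The cause of these shifts was not tested. Among all genes, a minimum of 20 CPM gave 1462 higher in E15 over E12 (2577 at 5 CPM), 275 higher and 593 lower in transplanted over E15 (479 and 1197) and 1337 higher in transplanted over E12 (2277), since fewer genes are tested. Without the libraries above 8000 genes transplanted over E15 gave 1832 higher and 2745 lower. Of the neuronal RNA-binding proteins, 3 against 8 were then higher in E15 over E12, 6 against 0 lower in transplanted over E15, and 3 against 8 higher and 4 against 2 lower in transplanted over E12. At 20 CPM 1 was lower in E15 over E12 and 1 in transplanted over E12. The share of E15 cells with Rbfox3 was 57.7% of 26 cells, and 62.5% at full depth against 31.3% thinned in the 24 cells deep enough. With 1 sample a group, depth cannot be told apart from group.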
